A study of Homo sapiens with 5 samples.

Results

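The regions described here had a CUT&RUN peak of the retinoblastoma protein (Rb) in vehicle-treated cells and no Rb peak after CDK4/6 inhibition. Peaks of 4 Rb libraries that shared at least 1 bp were merged, and the members were selected by their peak calls: a peak in at least 1 of the 2 DMSO libraries and in neither abemaciclib library. This gave 275 members of 15036 merged regions, or 9.96% of the 2760 regions with a DMSO peak. On chromosomes 1 to 22 and X there were 197 members, 7.56% of the 2607 regions with a DMSO peak there. On unplaced, random and decoy contigs there were 78 members, 51% of 153 such regions.

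Rb binds E2F transcription factors at promoters and holds back genes needed for S phase. Cyclin-dependent kinases phosphorylate Rb and release it, and inhibitors of CDK4 and CDK6 such as abemaciclib keep it hypophosphorylated. CUT&RUN directs a nuclease to an antibody-bound protein and sequences the released DNA. Sequences that occur in many copies, such as satellite arrays and minisatellites, can collect fragments in any library, including one made with a control antibody.

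The cells were ZR-75-1, a breast cancer line that expresses hormone receptors, in its parental form. Cultures received DMSO or 500 nM abemaciclib for 4 days, and 2 Rb libraries were made for each treatment from independent cultures, plus 1 library with an IgG2a control antibody from DMSO-treated cells; an IgG2a list from abemaciclib-treated cells was not analysed here. DMSO replicates 1 and 2 gave 1438 and 2582 peaks, abemaciclib replicates 1 and 2 gave 13960 and 12234, and IgG2a gave 589. The local background that recurred most often was 0.649 fragments in the first DMSO list and 0.677 in the other, and lay between 0.521 and 0.656 in the remaining 3 lists. At that background the weakest called peak held 6 fragments in each DMSO library and 5 in each abemaciclib library. The lists do not say how many fragments lay at a site without a peak, and which IgG library served as the control behind each list's background is not given in the sources used here.

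Of the 275 members, 233 had a peak in DMSO replicate 2 alone, 34 in DMSO replicate 1 alone and 8 in both. Members made up 9.76% of the 2470 regions with a peak in DMSO replicate 2 (95% Wilson interval 8.65% to 11.0%) and 2.98% of the 1409 regions with a peak in DMSO replicate 1 (2.21% to 4.00%). Most members therefore rested on 1 library of 4, and without DMSO replicate 2 the rule gave 42. The smallest two-sided p that an exact permutation of 2 and 2 libraries allows is 0.333, so the absence of abemaciclib peaks is given as a description of these lists.

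**Figure D1:**
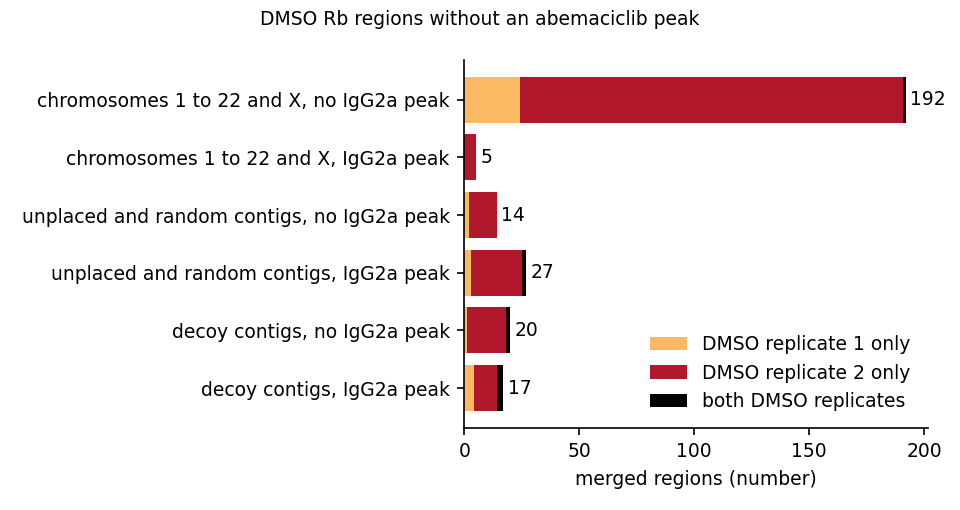
Number of members (horizontal axis) by contig class and overlap with an IgG2a peak, coloured by the DMSO library that held the peak. The 192 members on chromosomes 1 to 22 and X without an IgG2a peak form the longest bar, and 167 of them had a peak in DMSO replicate 2 alone.

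Representative sequences show the kinds of DNA found under the members (GRCh38, plus strand). In the first 3 and in the GL000225v1 contig, capitals mark every other unit of a tandem repeat found by comparing the sequence with itself; the first 2 are, on chromosomes 1 to 22 and X, the strongest member without an IgG2a peak (within MEG8, chr14:101038237-101038389, unit 51 bp) and the strongest with one (RTEL1 intron, chr20:63693529-63693654, unit 21 bp). The remaining repeat is an intergenic member on chromosome 6 (chr6:167433110-167433239), marked in units of 23 bp, the best shift within the printed stretch; over the 300-bp window used for the counts its best shift was 26 bp. Capitals mark the E2F pattern near the start site of SHCBP1L (chr1:182953167-182953234) and CG dinucleotides in the chromosome 9 stretch (chr9:113062999-113063118). The latter is the strongest member of chromosomes 1 to 22 and X outside promoters and tandem repeats and without an IgG2a peak. Capitals also mark copies of GGAAT or its complement ATTCC in a GL000216v2 member with a peak in both DMSO libraries (chrUn_GL000216v2:15679-15828). The GL000225v1 stretch is chr14_GL000225v1_random:133696-133845, with a unit of 69 bp. The marked units are best shifts and can be multiples of a shorter unit.
MEG8: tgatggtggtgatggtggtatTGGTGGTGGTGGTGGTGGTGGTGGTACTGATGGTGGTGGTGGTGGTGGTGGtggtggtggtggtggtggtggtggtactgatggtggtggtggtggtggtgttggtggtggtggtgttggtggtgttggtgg
RTEL1 intron: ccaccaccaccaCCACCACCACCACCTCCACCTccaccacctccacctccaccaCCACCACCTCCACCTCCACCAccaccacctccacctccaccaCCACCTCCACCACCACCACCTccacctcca
Chromosome 6 intergenic: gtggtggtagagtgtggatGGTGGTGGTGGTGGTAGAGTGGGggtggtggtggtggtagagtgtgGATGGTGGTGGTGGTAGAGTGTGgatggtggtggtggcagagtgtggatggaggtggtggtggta
SHCBP1L promoter: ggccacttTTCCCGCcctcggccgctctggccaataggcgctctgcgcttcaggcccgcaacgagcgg
Chromosome 9 intergenic: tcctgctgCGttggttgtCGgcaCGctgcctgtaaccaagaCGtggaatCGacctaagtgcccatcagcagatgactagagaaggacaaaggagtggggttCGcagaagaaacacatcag
GL000225v1: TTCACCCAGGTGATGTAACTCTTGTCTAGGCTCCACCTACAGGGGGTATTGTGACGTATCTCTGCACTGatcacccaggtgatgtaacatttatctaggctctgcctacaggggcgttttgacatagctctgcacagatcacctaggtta
GL000216v2: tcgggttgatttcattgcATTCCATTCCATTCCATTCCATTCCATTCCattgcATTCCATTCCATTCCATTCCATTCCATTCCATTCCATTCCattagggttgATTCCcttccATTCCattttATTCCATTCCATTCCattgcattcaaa
The MEG8, RTEL1 and chromosome 6 stretches are largely made of trinucleotides (TGG, or its complement CCA). The GL000216v2 stretch is a pentamer satellite, the kind found in pericentromeric heterochromatin. The SHCBP1L and chromosome 9 stretches hold no tandem repeat by the same measure.

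The values that chose the members were low on the main chromosomes and are given as a description. Among the 197 members there, the −log10 q of the best DMSO peak ran from 1.31 to 19.1 with a median of 2.42, whereas the 2410 DMSO regions with an abemaciclib peak had a median of 5.13 and a maximum of 88.3. The fragment pileup at the summit, solved from the fold and the p-value of each peak, had a median of 8 fragments in members and 11 in the other regions, and 166 of the 192 members without an IgG2a peak (86.5%) had at most 10 fragments. The median peak width was 155 bp in members and 264 bp in the others. Main-chromosome members without an IgG2a peak lay mostly in the lower part of each DMSO list. The 168 members without an IgG2a peak whose best peak was in DMSO replicate 2 had a median rank of 2006 of 2582 peaks, and their fold over local background ran from 2.87 to 6.83 with a median of 4.70. The 24 whose best peak was in DMSO replicate 1 had a median rank of 1138 of 1438 and a median fold of 4.85.

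The share of DMSO regions that lacked an abemaciclib peak fell with the strength of the DMSO peak. On the main chromosomes it was 21.2% of 259 regions with a −log10 q below 2, 18.9% of 419 from 2 to 3, 7.49% of 694 from 3 to 5, 1.28% of 703 from 5 to 10 and 0.376% of 532 at 10 or more. On the other contigs the same shares were 78.9% of 19, 80% of 25, 70.8% of 24, 41.9% of 31 and 24.1% of 54. So 13 members on the other contigs lay in the top class, compared with 2 on the main chromosomes, both of which overlapped an IgG2a peak.

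**Figure D2:**
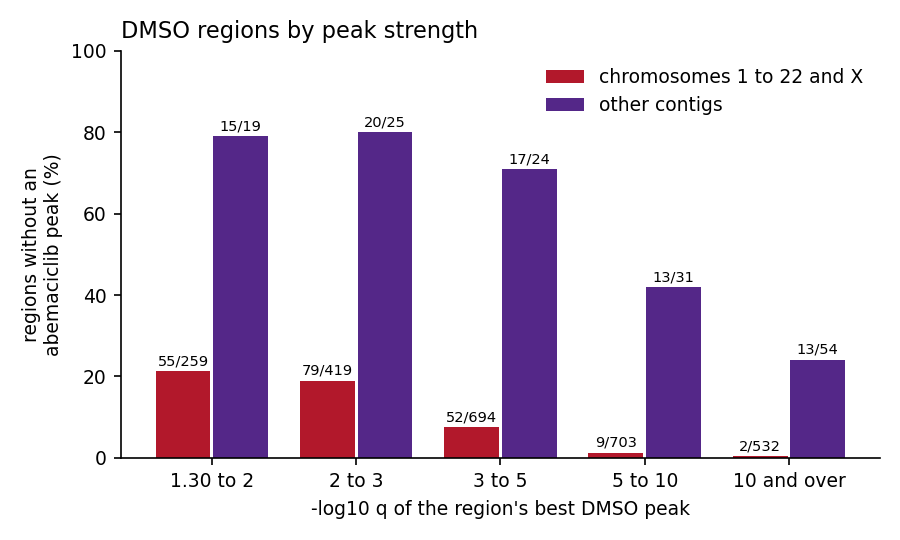
Share of regions with a DMSO peak that had no abemaciclib peak (vertical axis, %) by the −log10 q of the best DMSO peak (horizontal axis), with members over regions printed on each bar. On the main chromosomes the share is 21.2% in the weakest class and 0.376% in the strongest; on the other contigs it is 78.9% and 24.1%.

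Counted by abemaciclib libraries, few main-chromosome regions lay near the boundary set by the rule, whereas by strength many members lay near the peak threshold. A −log10 q below 2 was found for 70 of the 275 members (25.5%). On the main chromosomes, 197 DMSO regions had no abemaciclib peak, 5 had a peak in 1 abemaciclib library and 2405 had a peak in both. The 5 regions just outside the rule had a −log10 q of 2.54 to 11.6 in the abemaciclib library and 1.52 to 3.49 in DMSO. Just inside it, the weakest member there had a −log10 q of 1.307 in DMSO, and the weakest on any contig, on GL000224v1, had 1.302, beside a threshold of 1.301 in the lists. On the other contigs the counts were 78 with no abemaciclib peak, 29 with a peak in 1 library and 46 with a peak in both, so intermediate regions were common there.

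Members were also rarely seen in both DMSO libraries. On the main chromosomes 1 of 197 had a peak in both, against 1067 of the 2410 other regions. Strength moved with this: at a −log10 q below 2 a second DMSO peak was found for 0 of 55 members and 1 of 204 other regions, at 2 to 3 for 0 of 79 and 37 of 340, and at 3 to 5 for 0 of 52 and 160 of 642 (24.9%). From 5 to 10, 1 of 9 members and 392 of 694 others had a second DMSO peak. These counts come from the calls that define the regions and were not tested.

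The member called in both DMSO libraries on the main chromosomes lay in an intron of SHISA7, which encodes an auxiliary subunit of neurotransmitter receptors (chr19:55434762-55435167). It had 9 fragments over a background of 0.649 in DMSO replicate 1 (fold 6.06, −log10 q 4.40) and 10 over 0.701 in DMSO replicate 2 (fold 6.47, −log10 q 5.44). Both values are modest and close to each other, and the nearest abemaciclib peak was 6.97 kb away. Its summit lay in a tandem repeat, 3.18 Mb from the chromosome end, where 60 bp matched itself at 93.3% identity after a shift of 42 bp.

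The other 7 members called in both DMSO libraries were on other contigs, and 5 of them overlapped an IgG2a peak. The strongest, on a KN707896v1 decoy (chrUn_KN707896v1_decoy:18623-19387), had a −log10 q of 13.0 in DMSO replicate 1 and 48.6 in DMSO replicate 2, with folds of 1.40 and 1.72. A low fold with a high −log10 q means many fragments over a high background. The region overlapped an IgG2a peak and lay 331 bp from an abemaciclib peak. By contrast, a JTFH01000528v1 decoy region had 8 fragments over 1.26 in DMSO replicate 1 (−log10 q 1.38) and 16 over 1.40 in DMSO replicate 2 (−log10 q 8.23), and no IgG2a peak. The region on a KN707959v1 decoy, also without an IgG2a peak, had 32 fragments over 11.5 and 39 over 12.8. The 4 remaining regions overlapped IgG2a peaks: on KI270757v1 the pileups were 95 and 99 fragments over 53.6 and 52.6, on GL000216v2 64 and 42 over 32.8 and 16.1, on a KN707861v1 decoy 59 and 71 over 28.4 and 41.4, and on a KN707964v1 decoy 41 and 48 over 18.9 and 22.4. In each of these 4 the fold was below 3 in both libraries.

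**Figure D3:**
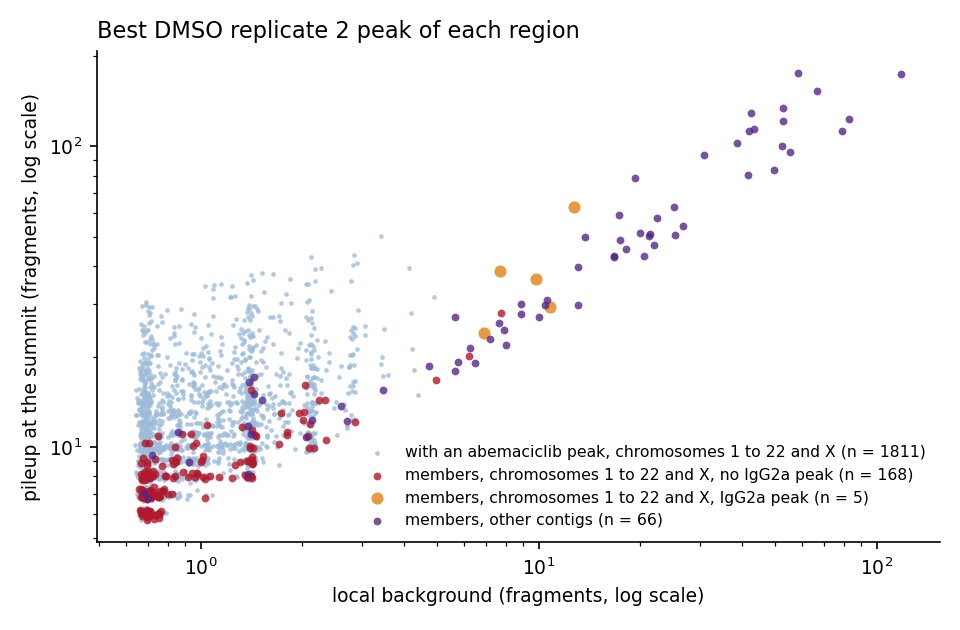
Summit pileup (vertical axis, fragments, log scale) against local background (horizontal axis, fragments, log scale) for the best peak of each region whose best peak was in DMSO replicate 2 and had a solved pileup, with slight jitter. Members on chromosomes 1 to 22 and X without an IgG2a peak have a median of 8 fragments, and the 5 with an IgG2a peak hold 23 to 63 fragments over a background of 7.01 to 12.6.

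The position of the members was then compared with that of the other DMSO regions, because position was not used by the rule. The summit of 33 of 197 members lay in a promoter, defined as 2000 bp upstream to 500 bp downstream of an annotated transcription start site, or 16.8% (95% Wilson interval 12.2% to 22.6%). Of the 2410 DMSO regions with an abemaciclib peak, 96.1% were in a promoter (95.3% to 96.8%), a difference of −79.4 percentage points (Fisher's exact test, two-sided, adjusted p = 7.91e-156 over 4 tests). The comparison regions overlap abemaciclib lists that are themselves mostly promoter peaks, 85.3% and 88.2% of main-chromosome summits in replicates 1 and 2, and the rule thus bears on the make-up of that set. Regions with a peak in 1 abemaciclib library and in no other Rb library, a set that also rests on 1 library, were in a promoter in 63.0% of 3596 cases (61.4% to 64.6%). Points placed every 200 kb along the genome were in a promoter in 8.33% of 14559 cases. Of the 84 IgG2a peaks on the main chromosomes, 8 had a summit in a promoter (9.52%). The test compares sets of regions, which are not replicates of a treatment.

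The difference was as large among weak peaks, and the limit on the make-up of the comparison regions holds there too. Among regions whose best DMSO q lay between 0.05 and 0.001, 14.9% of 134 members and 94.5% of 544 others were in promoters (Fisher's exact test, two-sided, adjusted p = 3.71e-78). Outside promoters, 76 members were intergenic, 64 were in introns of protein-coding genes, 12 in introns of non-coding genes, 7 in coding exons, 3 in other exons and 2 in untranslated regions. The median distance from a member to the nearest start site of a protein-coding gene was 18.7 kb, with the middle 50% between 5.37 and 65.3 kb, compared with a median of 0.113 kb in the other regions.

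Base composition followed the same division. The 500 bp around the summit had a median GC content of 54.0% in members, 67.8% in the other DMSO regions, 60.8% in regions with a peak in 1 abemaciclib library only and 40% at the evenly spaced genome points. The ratio of observed to expected CpG, which is near 1 in unmethylated CpG islands and low in the bulk of the genome, had a median of 0.262 in members, 0.847 in the others, 0.628 in regions with a peak in 1 abemaciclib library only and 0.184 at the genome points. With CpG-rich defined as a GC content of at least 55% and a ratio of at least 0.65, 17 members were CpG-rich (8.63%, 5.46% to 13.4%) against 90.2% of the others (89.0% to 91.3%; Fisher's exact test, two-sided, adjusted p = 1.05e-137). The limit given for the promoter share holds here too, because the rule bears on the make-up of the other regions. The median of the members thus lay above the genome points in GC content and near them in CpG ratio.

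**Figure D4:**
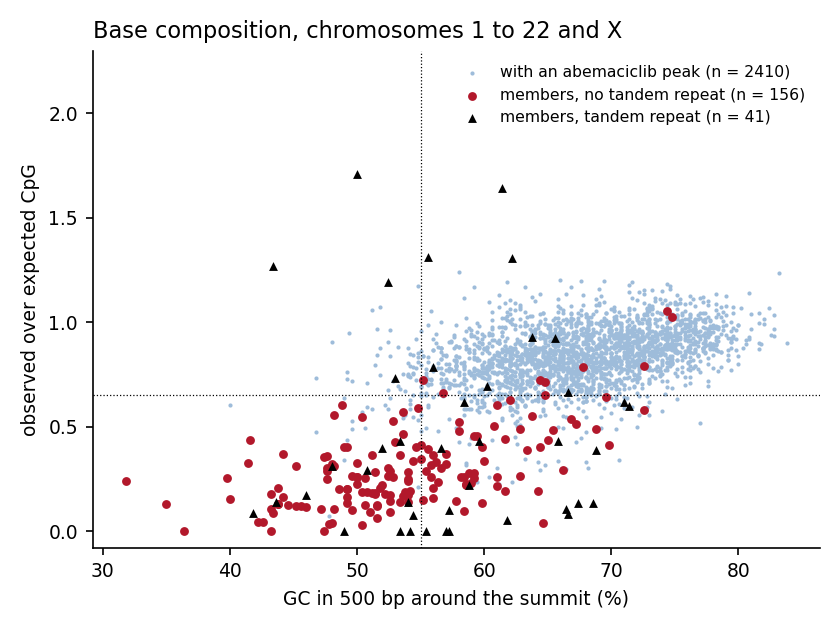
Observed over expected CpG (vertical axis) against GC content in 500 bp around the summit (horizontal axis, %) on chromosomes 1 to 22 and X, with dotted lines at the limits for CpG-rich, 55% and 0.65. Members have a median CpG ratio of 0.262 and lie mostly below the cloud of the 2410 regions with an abemaciclib peak, whose median is 0.847; members in tandem repeats are spread from 0 to 1.71.

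The E2F pattern, a core shared by many E2F sites, was read as TTCCCGC or TTCGCGC, with the further spellings TTGCCGC and also TTGGCGC, on either strand. It was sought in 200 bp around the summit. It was present in 10 of 197 members (5.08%, 2.78% to 9.09%) and in 27.1% of the other DMSO regions (25.3% to 28.9%; Fisher's exact test, two-sided, adjusted p = 1.20e-14). It was found in 9.12% of windows of that length centred on the start sites of all annotated transcripts of protein-coding genes. The share was 11.4% in regions with a peak in 1 abemaciclib library only and 0.962% at genome points. The pattern read backwards, which keeps its base composition, also differed, at 2.54% of members and 17.6% of the others (Fisher's exact test, two-sided, adjusted p = 1.89e-10). Among windows that were not CpG-rich, 7 of 180 members (3.89%, 1.90% to 7.81%) and 52 of 236 others (interval 17.2% to 27.7%) held the pattern. The backwards pattern was in 0.556% of these members and 10.2% of these others. In CpG-rich windows 3 of 17 members (17.6%, 6.19% to 41.0%) and 27.6% of 2174 others held the E2F pattern. The backwards pattern was in 23.5% and 18.4% of those, respectively. The part of base composition in the E2F difference was not tested. The limit on the make-up of the comparison regions holds for this test as well. A match describes letters in a window and not binding.

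Of the 10 members with the pattern, 3 were in promoters of protein-coding genes. TTCCCGC lay inside the SHCBP1L peak, on chromosome 1 from 182953175 to 182953181, and TTGCCGC inside the FXYD3 peak on the minus strand of chromosome 19 from 35115863 to 35115869, in an untranslated exon. At VOPP1 the copy of TTCCCGC, on chromosome 7 from 55515800 to 55515806, was in the window but outside the peak interval. VOPP1 and FXYD3, an ion transport regulator of the FXYD family, were picked for their pattern after their values were seen.

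**Figure D5:**
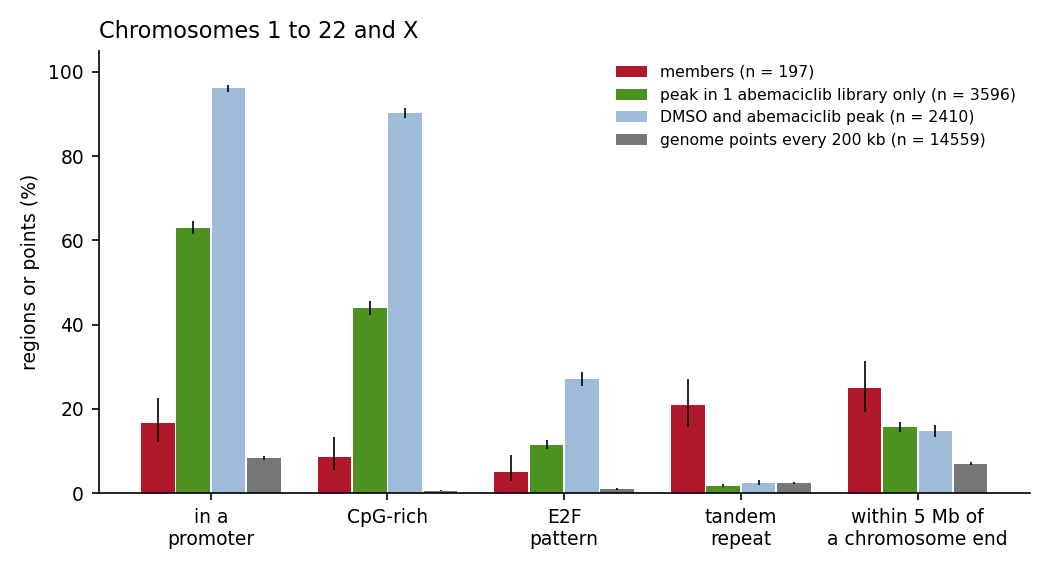
Share of regions or points (vertical axis, %; error bars, 95% Wilson intervals, counting error only) with 5 features on chromosomes 1 to 22 and X. Members are the lowest of the 3 sets of Rb regions for promoters (16.8%), CpG-rich sequence (8.63%) and the E2F pattern (5.08%), and the highest for tandem repeats (20.8%) and for positions within 5 Mb of a chromosome end (24.9%).

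At promoters of protein-coding genes there were 26 members, which marked 27 genes, 0.135% of 19962. A summit of any DMSO region was found in a promoter of 13.8% of these genes. Start sites of all annotated transcripts of a gene were used, so a promoter here need not be the gene's main promoter. For 18 of the 27 genes an abemaciclib summit lay elsewhere in one of the gene's promoters, and for 9 it did not: SHCBP1L, ABCC6, AQP4, MGST2, S100A1, S100A13, PRDM15, AQP3 and OPTC, which were named after their values were seen. At those 18 genes an Rb peak was thus still listed at a promoter of the gene after abemaciclib, but not always near the member. The nearest abemaciclib peak was 122 kb away at TSPAN9, 73.6 kb at SMAD3 and 68.3 kb at ITPR1. Other gaps were short. At TNNI3, the cardiac troponin I gene, the member ended 6 bp from an abemaciclib peak; at ARHGAP22 the gap was 103 bp, and at EPS8L1, an EPS8-related actin regulator gene, it was 141 bp. Of the 6 members within 1 kb of an abemaciclib peak, 5 were in such promoters.

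The 10 strongest members in promoters of protein-coding genes all came from DMSO replicate 2. SHCBP1L, the SHC-binding protein 1-like gene, had 12 fragments over a background of 1.31 (fold 5.64, −log10 q 4.73; chr1:182953142-182953294), was CpG-rich and lay 69.7 kb from the nearest abemaciclib peak. ABCC6, a transporter gene mutated in pseudoxanthoma elasticum, had 9 fragments over 0.677 (fold 5.96, −log10 q 4.46; chr16:16223547-16223694). The 200 bp around the ABCC6 summit occur 3 times in the reference at 95% identity or more, so placement of its reads is uncertain. TSPAN9, a tetraspanin gene, had 13 fragments over 1.99 (−log10 q 3.61; chr12:3199813-3199949) and, with SHCBP1L and ABCC6, was CpG-rich; the other 7 of the 10 were not.

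ITPR1, the inositol trisphosphate receptor gene, had 9 fragments over 0.871 (−log10 q 3.55; chr3:4724478-4724613), and CNDP2, a cytosolic dipeptidase gene, had 11 over 1.42 (−log10 q 3.48; chr18:74513572-74513750). ARHGAP22 had 8 fragments over 0.677 (−log10 q 3.41; chr10:48655746-48655885) and TNNI3 had 8 over 0.691 (−log10 q 3.37; chr19:55155996-55156145). PTK2B, a focal adhesion kinase family gene, had the same pileup and background as TNNI3 (chr8:27325197-27325402). SMAD3, a transducer of TGF-β signalling, had 8 over 0.701 (−log10 q 3.32; chr15:67179823-67179975), and EPS8L1 had 8 over 0.757 (−log10 q 3.07; chr19:55075946-55076231) in a tandem repeat with a best shift of 37 bp. The 10 pileups thus ran from 8 to 13 fragments, beside 6 at the weakest peak in that list.

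Members at promoters were also counted over lists of genes, with no test. Of 128 listed cell cycle and DNA replication genes, 0 had a member in a promoter, while 74 had a summit of a DMSO region there, all of them in regions that also had an abemaciclib peak. The same count was 0 of 85 DNA repair and checkpoint genes (45 with a DMSO region), 0 of 73 oestrogen response and luminal genes matched to the annotation of 74 listed (10), 0 of 102 chromatin regulators (29) and 0 of 52 translation and ribosome biogenesis genes (9). Over all protein-coding genes the share with a member was 0.135%, so these counts of 0 lie near the background.

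Outside promoters on chromosomes 1 to 22 and X, the 5 strongest members without an IgG2a peak included SHISA7 and 4 regions called in DMSO replicate 2 alone. The region at chr9:113063002-113063223, 6.30 kb from the start site of the zinc finger gene ZFP37, had 11 fragments over 0.757 (fold 6.83, −log10 q 6.23), and its 200-bp window occurs 5 times in the reference. The region at chr18:62505524-62505673, 17.4 kb from ZCCHC2, had 12 fragments over 1.04 (fold 6.37, −log10 q 5.80). The region at chr6:167433006-167433274, 108 kb from the tubulin ligase-like gene TTLL2, had 11 fragments over 0.852 (fold 6.48, −log10 q 5.68) and lay in the repeat shown above. An intron of SH2B2, an adaptor gene of receptor tyrosine kinase signalling, held 10 fragments over 0.677 (fold 6.56, −log10 q 5.57; chr7:102308720-102308903). All 5 had between 9 and 12 fragments at the summit.

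Tandem repeats were common among the members, a feature examined after the sequences had been seen and therefore described with no test. A stretch of 60 bp within 300 bp of sequence around the summit matched itself at 80% identity or more after a shift of 2 to 150 bp in 41 of 197 members (20.8%, 15.7% to 27.0%). The share was 2.49% in the other DMSO regions (1.94% to 3.19%), 1.75% in regions with a peak in 1 abemaciclib library only (1.37% to 2.24%) and 2.31% at the genome points. At an identity of 90% it was 17.8% in members and 0.788%, 0.862% and 1.11% in the 3 other sets. In the IgG2a list the share at 80% identity was higher than in members, at 44 of 84 main-chromosome peaks (52.4%). By library, 6 of 25 members with a peak in DMSO replicate 1 and 36 of 173 with a peak in DMSO replicate 2 were in repeats (24.0% and 20.8%). Without the 5 members that overlap an IgG2a peak, all of which were in repeats, the share was 18.8% (13.9% to 24.9%).

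In 38 of the 41 the best shift was 10 bp or longer, and its median was 56 bp. A best shift can be a multiple of a shorter unit, so it does not give the length of the unit. The MEG8 and RTEL1 stretches had best shifts of 51 and 21 bp but were largely made of trinucleotides. The 36 repeat members without an IgG2a peak had a median background of 1.02 fragments and a median pileup of 9.5, against 0.710 and 8 in the 156 members outside repeats. The part of this higher background in the result was not tested. A second copy of the 200-bp window at 95% identity or more was present in the reference for 28 of 197 members (14.2%, 10.0% to 19.8%) and for 2.41% of the other DMSO regions (1.87% to 3.10%). The copy from which a read came is uncertain for such windows.

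Repeat members lay towards chromosome ends. Human minisatellites are known to cluster there, but the class of these repeats was not determined. Of the 41, 25 were within 5 Mb of a chromosome end (61.0%, 45.7% to 74.3%), against 24 of the 156 members outside repeats (15.4%, 10.6% to 21.9%). Over all members the share was 24.9% (19.4% to 31.4%), compared with 14.7% of the other DMSO regions, 15.7% of regions with a peak in 1 abemaciclib library only and 6.97% of genome points. Members were found on every chromosome from 1 to 22 and X, from 1 on chromosome X to 23 on chromosome 1, and per 100 Mb were most frequent on chromosome 19, at 20.5. Chromosome 19 also held many DMSO regions, and members were 12 of 206 there (5.83%), below the 7.56% over the main chromosomes. As a share of DMSO regions they ranged from 1.96% on chromosome X to 35.7% on chromosome 21, where 5 of 14 regions were members.

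The distance from a main-chromosome member to the nearest abemaciclib peak had a median of 52.7 kb, with the middle 50% between 14.9 and 153 kb. It was at most 1 kb for 6 members, at most 10 kb for 32 (16.2%) and at most 100 kb for 134. Most members thus lay more than 10 kb from any abemaciclib peak.

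Overlap with the IgG2a control differed by contig class. Over all contigs, 49 of 275 members (17.8%, 13.7% to 22.8%) and 61 of 2485 other DMSO regions (2.45%, 1.92% to 3.14%) overlapped an IgG2a peak (Fisher's exact test, two-sided, adjusted p = 4.86e-22). Within the main chromosomes the shares were 5 of 197 (2.54%, 1.09% to 5.80%) and 1 of 2410 (0.0415%). On the other contigs the order was the opposite, with 44 of 78 members (56.4%, 45.4% to 66.9%) and 60 of 75 others (80%, 69.6% to 87.5%). The pooled difference thus did not hold within both classes: 78 of 275 members and 75 of 2485 others lay on the other contigs. On decoys 17 of 37 members and 32 of 32 others overlapped an IgG2a peak, and on unplaced and random contigs 27 of 41 and 28 of 43 did. The Rb peaks were called with matched IgG as control, so IgG2a overlap may not be independent of the calls that define the regions.

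The 5 main-chromosome members with an IgG2a peak, named after their values were seen, had the highest pileups of the members on chromosomes 1 to 22 and X apart from 1 intergenic region of chromosome 20 with 28 fragments. RTEL1, a helicase gene of telomere maintenance, had 63 fragments over 12.6 in DMSO replicate 2 and 20 over 1.19 in IgG2a (chr20:63693521-63693676). OPRL1, the nociceptin receptor gene, had 38 over 7.72 and 10 over 0.921 (chr20:64088604-64088886). An intergenic region 43.3 kb from the transcription factor gene SOX8 had 37 over 9.82 and 11 over 1.16 (chr16:1025340-1025658). RPTOR, which encodes the mTORC1 subunit raptor, had 23 over 7.01 and 14 over 1.19 (chr17:80744702-80744859), and an intergenic region of chromosome 10 had 29 over 10.5 and 16 over 0.876 (chr10:10266646-10266964). The same sequences thus gave peaks with the control antibody, and each was in a tandem repeat.

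The strongest member on the main chromosomes without an IgG2a peak lay within the long non-coding RNA gene MEG8, in the promoter windows of the microRNA genes MIR376A2, MIR376C and MIR654 (chr14:101038270-101038444). It had 15 fragments over 1.40 (fold 6.66, −log10 q 7.24) in DMSO replicate 2, in the repeat shown above. This region was singled out after its values were seen.

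The 78 members on other contigs lay on 48 contigs, of which 33 were decoys and 15 unplaced or random. Their pileups were higher, with a median of 40.5 fragments over a median background of 14.6 in the 76 with a solved pileup, and their folds were lower, with a median of 2.75. The 5 strongest were on decoys and all overlapped IgG2a peaks: besides the KN707896v1 region, JTFH01001973v1 had a −log10 q of 44.2 in DMSO replicate 1, JTFH01001465v1 28.7 and JTFH01001613v1 23.8 in DMSO replicate 2, and JTFH01001899v1 20.4 in DMSO replicate 1. Of the 26 members there with a −log10 q of at least 5, 19 overlapped an IgG2a peak. Decoy sequences were not read here.

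For the 41 members on unplaced and random contigs the sequence could be read. A tandem repeat was found in 33 (80.5%, 66.0% to 89.8%), compared with 28 of 43 DMSO regions with an abemaciclib peak on such contigs (65.1%, 50.2% to 77.6%), and the intervals overlap. At least 6 copies of GGAAT, or of ATTCC, lay in the 300 bp around the summit in 18 of 41 members and 22 of the 43 others, and in 0 of 197 members and 0 of 2410 others on the main chromosomes. GL000216v2 held 8 members, 6 with an IgG2a peak; KI270736v1 held 6, of which 4 had an IgG2a peak, and GL000225v1 held 5, also with 4. All 19 were in tandem repeats. On GL000225v1 the 2 strongest had 138 fragments over 55.4 and 96 over 31.6, in units of 69 bp, a length typical of beta satellite DNA.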

How the data were processed

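Narrow peak lists of 4 Rb and 1 IgG2a CUT&RUN libraries were used as deposited. The authors trimmed reads with BBDuk, aligned them to hg38 with Bowtie2 (version 2.3.4.1), removed mitochondrial and blacklisted reads, kept duplicates, and called peaks per library with MACS2 (version 2.2.7.1) at a q-value of 0.05 with matched IgG as control; which IgG library served each list is not given in the sources used here. The deposited fold is a ratio with 1 added to the pileup and to the background, and the deposited p-value and q-value are given as −log10. The lists hold no read totals. The members and lists were chosen with earlier results of these data known.

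Peaks were merged with Python 3.11.15 and annotated with GENCODE 44. Pileup and background were solved from fold and p-value up to a −log10 p of 40 (tolerance 0.001), which gave a solution for at least 99.6% of the peaks within that limit in each list, and the step was tested on simulated data. Stronger peaks have no solved pileup. Promoter, CpG-rich, E2F and IgG2a shares were compared by Fisher's exact test (scipy 1.17.1) with Benjamini-Hochberg adjustment over 4 tests; regions are not replicates. Tandem repeats, copies (blastn 2.17.0, 95% identity over 90% of 200 bp), chromosome ends and the set with a peak in 1 abemaciclib library only were chosen after seeing the data. Members named were all with peaks in both DMSO libraries, the 10 best in coding promoters, the 5 best outside promoters, on other contigs and with an IgG2a peak, and any in the gene lists. Alternatives changed the q-value, merging, windows, contigs, IgG2a peaks, comparison regions, promoter and pattern definitions and libraries. Wilson 95% intervals cover counting error only. Coordinates are counted from 1.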

Additional observations from a re-analysis of the deposited data

How the results depend on the processing

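The number of members was 275 as reported. A q-value limit of 1e-05 in all 4 Rb lists left 51. It left 37 when set on the DMSO lists alone. There were 413 members with 400-bp windows centred on summits, 2586 when 50% reciprocal overlap was required, and 8 when both DMSO libraries had to hold the peak, an alternative chosen after seeing the data. Leaving out 1 library gave 42 to 302 members, with 42 without DMSO replicate 2, which thus decided most of the count. The other 4 alternatives gave 197 to 257. By the construction of reciprocal overlap, a DMSO peak inside an abemaciclib peak more than 2 times as wide counts as a member; for the other changes the cause was not tested.

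The promoter, CpG-rich, E2F pattern and IgG2a overlap differences kept their direction and passed the threshold in all 39 alternatives run for them, leaving out the E2F pattern read backwards. That control differed by −15.1 points, in the same direction. They ranged from −88.7 to −76.7, −82.5 to −75.4, −42.9 to −15.0 and 10.3 to 25.1 percentage points, respectively, with Fisher's exact test, adjusted p of at most 0.00312. The pooled IgG2a difference has opposite signs in the 2 contig classes. The limit on the make-up of the comparison regions holds in these alternatives too. No paired analysis was possible because the comparisons come from sets of regions and not from a fit across libraries. The lists hold called peaks only, so sites just under the threshold could not be compared.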
